A study of Mus musculus with 22 samples.

Results

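The data described here are 5 RNA-seq libraries of bone marrow eosinophil precursors, 2 of maturation stage II and 3 of maturation stage I, all from mice in which IL-5 was neutralised. They were chosen by their sample titles, and are 5 of the 22 libraries of the series. The mice were wild type and of strain C57BL6. Each received 400 ng recombinant murine IL-33 by intraperitoneal injection on each of 7 days, which raises eosinophil numbers, and 400 µg of anti-IL5 on 3 days, the first being that of the last IL-33 dose. The 5 isotype libraries of the same stages (3 of stage I, 2 of stage II) come from mice given the same IL-33 and a control antibody in place of anti-IL5, so no group was without IL-33. Marrow was depleted of cells carrying Ly6G, CD90.2, NK1.1 or CD45R, and live cells were sorted by flow cytometry into 4 stages with antibodies to CD117, CD200R3, Pir-A/B, CD55, CD29, Siglec-F and F4/80, at a purity of at least 95%. Neither the age nor the sex of the mice was stated, nor which of these antigens set the border between stages I and II. The labels do not say whether libraries came from separate mice, so a p-value here measures only a spread between libraries, which may be technical. In the main fit that spread is estimated from all 22 libraries of the series and not from these 5 alone.

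Eosinophils form in the bone marrow from a committed progenitor. Early cells divide and build the ribosomes and secretory machinery needed to make the cationic granule proteins, and later cells leave the cycle and gain the integrins, chemokine receptors and inhibitory receptors of the circulating cell. IL-5 acts through IL5RA, the common beta chain CSF2RB and STAT5 to support their growth and survival, and IL-33 acts on ST2 (Il1rl1), largely upstream of IL-5 release by innate lymphoid cells. The question of the comparison is what changes at the first maturation step when that IL-5 signal is blocked.

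The 5 libraries held 7401093 to 8813193 gene counts, and 3 counts in 1 library correspond to 0.286 to 0.382 CPM (counts scaled by library size, which TMM adjusts for composition). In a principal component analysis of these 5 libraries the first component held 54.7% of the variance and separated the stages, with stage I at -18.9, -36.3 and -53.3 and stage II at 73.8 and 34.7. Stage II library 2 lay nearer to stage I than stage II library 1 did. Eosinophil genes were present in every library at differing levels. Prg2, the major basic protein, ranged from 16880 to 21230 CPM, and Siglecf from 356 to 406 CPM. Ccr3 ranged from 17.9 to 149 CPM and Il1rl1 from 19.99 to 65.0 CPM. Of the other cell types that the marrow could contribute, the mast cell proteases Mcpt4, Cma1, Tpsb2 and Tpsab1, the 4 globin genes, the B cell genes Ms4a1 and Pax5, and 7 T, NK and innate lymphoid genes (Cd3e, Cd8a, Ncr1, Eomes, Gata3, Rora and Thy1) had 0 counts in all 5 libraries. Other members of these lists had counts. Over the 5 libraries the basophil and mast cell list summed to 989 to 3133 CPM and the erythroid list to 83.2 to 158 CPM. The B lineage list summed to 74.6 to 184 CPM. The T, NK and innate lymphoid list, which holds Nkg7, summed to 206 to 1023.5 CPM. Mature neutrophil genes summed to 2647 to 8298 CPM. Azurophil granule genes, which mark immature neutrophils and monocytes but also early granulocyte progenitors, were present too. These lists are described with the results.

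Of 12387 genes tested with edgeR's quasi-likelihood test, 1539 passed a Benjamini-Hochberg adjusted p of 0.05 between stage I and stage II under anti-IL5, which is 12.4% of those tested. At stage II 900 were higher (7.27%) and 639 lower (5.16%), and the median log2 fold change over all genes was 0. Among the called genes 791 changed by more than 1 on the log2 scale and 275 by more than 2. At an unadjusted p under 0.05 there were 3202 genes. For 5114 genes (41.3%) the 2 stage II libraries lay entirely above (2585, 20.9%) or entirely below (2529, 20.4%) the 3 stage I libraries. The number of calls depended on single libraries: it was 509 without stage II library 1 and 865 without stage I library 3. Higher genes made up 58.5% of the calls with all 22 libraries in the fit and 45.3% of 1118 calls when only the 5 libraries were fitted. In bulk RNA fewer cells of a kind and less RNA per cell cannot be told apart, which holds for every fall and rise given below. A fold change is log2, stage II against stage I, with its standard error (SE).

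**Figure D1:**
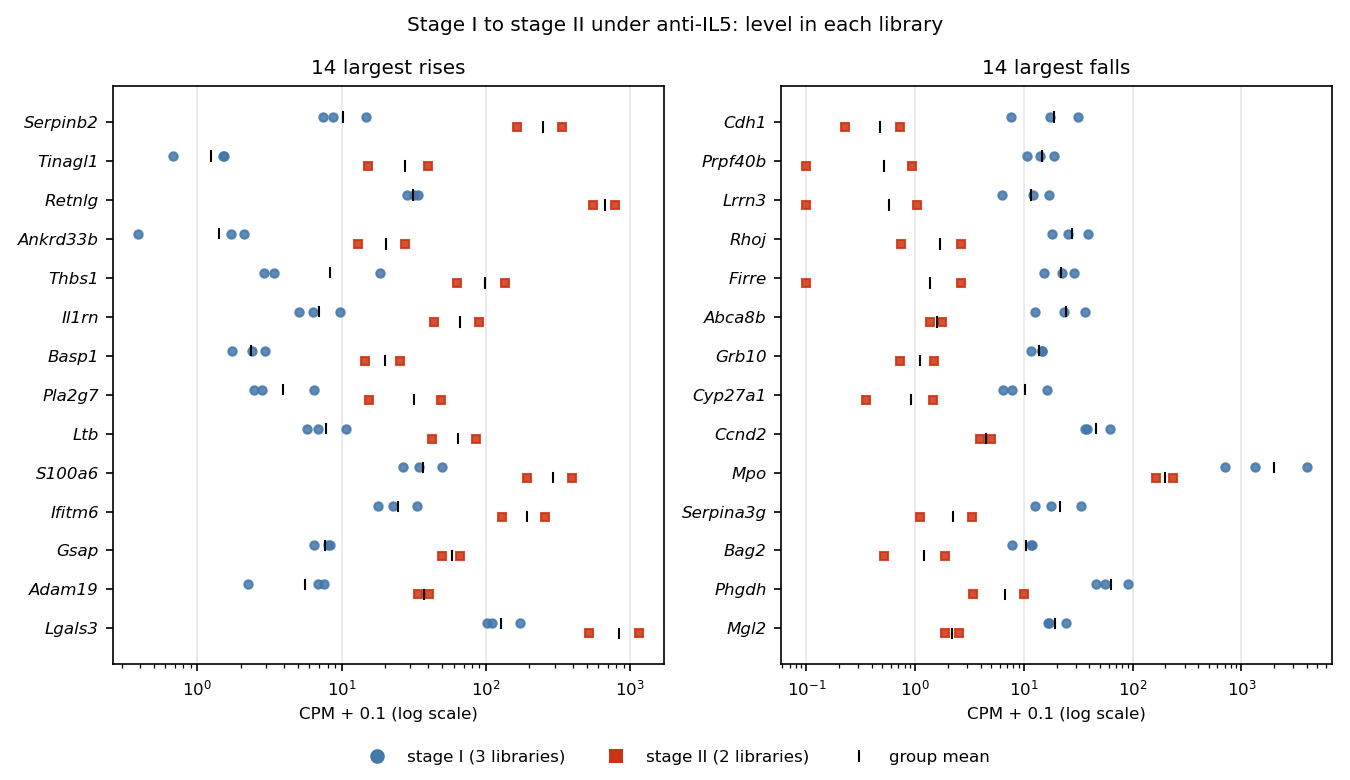
Level in each library (CPM plus 0.1, log axis) of the 14 largest rises (left) and the 14 largest falls (right), taken from called genes whose stages did not overlap and whose higher mean reached 10 CPM. Circles are the 3 stage I libraries, squares the 2 stage II libraries and short black lines the group means; for Retnlg the circles sit between 28.2 and 33.6 CPM and the squares at 556 and 789 CPM.

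Genes at a low level at stage I made up most of the 14 largest rises. Serpinb2, which encodes the plasminogen activator inhibitor PAI-2 (mm10 chr1:107511423-107535478), measured 14.7, 8.66 and 7.31 CPM at stage I and 337 and 163 CPM at stage II (log2 fold change 4.62 ± 0.40, edgeR adjusted p = 6.04e-07). Its stages did not overlap, but its exons overlap those of Serpinb10 on the same strand, so reads of that stretch cannot be assigned by position alone. Retnlg, a resistin-like secreted protein (chr16:48872621-48874496), measured 28.2, 31.5 and 33.6 CPM at stage I and 789 and 556 CPM at stage II (log2 fold change 4.43 ± 0.34, edgeR adjusted p = 1.86e-07). Tinagl1, a secreted matricellular protein (chr4:130164454-130175122), measured 1.42, 1.43 and 0.584 CPM at stage I and 39.6 and 15.1 CPM at stage II (log2 fold change 4.57 ± 0.49, edgeR adjusted p = 8.61e-06). Both stage II libraries lay far above the stage I libraries in these 3 genes. Retnlg is also a member of the mature neutrophil list described below. Other members were Ankrd33b (3.97 ± 0.60), the matrix glycoprotein thrombospondin-1 (Thbs1, 3.63 ± 0.85), the IL-1 receptor antagonist Il1rn (3.27 ± 0.49) and the membrane-bound signalling protein Basp1 (3.14 ± 0.40). Lymphotoxin beta (Ltb, 3.06 ± 0.35), the calcium-binding protein S100a6 (2.99 ± 0.30), Ifitm6 (2.97 ± 0.33) and the gamma-secretase activating protein Gsap (2.93 ± 0.26) followed. Also among the 14 were the metalloprotease Adam19 (2.77 ± 0.34), galectin-3 (Lgals3, 2.71 ± 0.33), and Pla2g7, which is described with the lipid mediators. In Il1rn, Ltb, S100a6, Ifitm6, Lgals3 and Serpinb2 stage II library 1 held about double the CPM of stage II library 2. The stage I libraries of Thbs1 were far apart, at 18.4 CPM in library 1 against 3.33 and 2.82 CPM, and it lost its call without stage I library 3 or stage II library 1 (highest edgeR adjusted p = 0.119).

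Several of the largest falls were to levels close to the detection floor. Cdh1, which encodes E-cadherin (chr8:106603351-106670246), measured 7.58, 17.1 and 31.4 CPM at stage I and 0.127 and 0.628 CPM at stage II (log2 fold change -5.52 ± 1.47, edgeR adjusted p = 0.0168). Grb10, an adaptor that binds growth factor receptors, measured 11.6, 14.7 and 14.7 CPM at stage I and 1.40 and 0.628 CPM at stage II (log2 fold change -3.76 ± 0.58, edgeR adjusted p = 0.000769). Abca8b, a lipid transporter, measured 12.6, 23.2 and 36.7 CPM at stage I and 1.27 and 1.68 CPM at stage II (log2 fold change -4.02 ± 0.68, edgeR adjusted p = 0.000629). Each had at least 7.58 CPM in every stage I library and at most 1.68 CPM in both stage II libraries. The other large falls were in the splicing factor gene Prpf40b (-4.98 ± 1.03), Lrrn3 (-4.51 ± 1.40), the small GTPase gene Rhoj (-4.08 ± 1.01), and the long noncoding RNA Firre (-4.05 ± 0.92). Lower too were the sterol hydroxylase gene Cyp27a1 (-3.59 ± 0.84), the protease inhibitor gene Serpina3g (-3.28 ± 0.77), the co-chaperone gene Bag2 (-3.25 ± 0.71) and the C-type lectin gene Mgl2 (-3.19 ± 0.84), with Ccnd2, Mpo and Phgdh described below. Serpina3g belongs to a cluster of near-identical genes and its count is uncertain. In Cdh1, Lrrn3, Rhoj, Abca8b, Cyp27a1 and Serpina3g stage I library 3 was the highest and stage I library 1 the lowest. Grb10 and Abca8b kept their calls whichever library was left out. Cdh1 (highest edgeR adjusted p = 0.187) and Mgl2 (0.119) lost their calls without stage I library 3 or either stage II library, and Lrrn3 (0.291) also without stage I library 2. Bag2 lost its call without stage II library 2 (edgeR adjusted p = 0.0580). The calls lost without stage II library 1 were those of Prpf40b (0.0619), Rhoj (0.165), Firre (0.0768), Cyp27a1 (0.129) and Serpina3g (edgeR adjusted p = 0.144).

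Part of the genes of stem and progenitor cells fell at stage II. Of 29 tested members of this list 8 fell (against 5.16% of all genes) and 0 rose, with a median log2 fold change of -1.25. Cd34, a sialomucin of early haematopoietic cells, measured 95.8, 119 and 158 CPM at stage I and 33.2 and 40.1 CPM at stage II (log2 fold change -1.76 ± 0.34, edgeR adjusted p = 0.00173). Adgrg1, an adhesion receptor of stem and progenitor cells, measured 60.8, 62.0 and 89.0 CPM at stage I and 11.0 and 22.6 CPM at stage II (log2 fold change -2.06 ± 0.40, edgeR adjusted p = 0.00169). The highest stage II value lay below the lowest stage I value in both. Egfl7, a secreted factor, measured 4.86, 5.90 and 10.7 CPM at stage I and 0.382 and 0.628 CPM at stage II (log2 fold change -3.78 ± 0.92, edgeR adjusted p = 0.00919). The growth factor gene Angpt1 and the homeobox gene Hoxa7 changed by -2.03 ± 0.51 and -4.17 ± 1.17. Hoxa7 shares exon sequence with the antisense gene Hoxaas3. Kit, which encodes the CD117 antigen of the sort, measured 59.5, 93.9 and 87.5 CPM at stage I and 21.4 and 53.9 CPM at stage II. Its 2 stage II libraries differed by more than 2-fold and it did not pass (log2 fold change -1.09 ± 0.51, edgeR adjusted p = 0.185). With limma-voom Kit passed (adjusted p = 0.0433). Cd34 kept its call whichever library was left out. Without stage II library 1 the list had 1 called member instead of 8. The edgeR adjusted p was then 0.0600 for Adgrg1, 0.125 for Egfl7 and 0.179 for Angpt1. Hoxa7 was lost also without stage I library 3 (highest 0.202).

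The azurophil granule genes, which encode the proteases and peroxidase of primary granules, fell in part. All 8 tested members had a negative log2 fold change, with a median of -2.99, and 4 passed (against 5.16% of all genes lower). Without either stage II library 1 member was called. Mpo, myeloperoxidase (chr11:87793581-87804413), measured 701, 1328 and 4002 CPM at stage I and 164 and 235 CPM at stage II (log2 fold change -3.33 ± 1.04, edgeR adjusted p = 0.0491). Ctsg, cathepsin G, measured 43.5, 99.9 and 271 CPM at stage I and 14.6 and 16.3 CPM at stage II (log2 fold change -3.15 ± 0.83, edgeR adjusted p = 0.0185). Ms4a3, a membrane protein of granulocyte and monocyte progenitors, measured 199, 354 and 513 CPM at stage I and 32.4 and 57.3 CPM at stage II (log2 fold change -2.98 ± 0.63, edgeR adjusted p = 0.00505). In each of the 3, stage I library 3 was the highest and library 1 the lowest, and both stage II libraries lay below all of stage I. Nkg7, a granule membrane protein, measured 757, 870.4 and 1018 CPM at stage I and 279 and 201 CPM at stage II (log2 fold change -1.88 ± 0.42, edgeR adjusted p = 0.00555). Elane, neutrophil elastase, was at 766 CPM in stage I library 3 and at 34.1 and 63.8 CPM in the other stage I libraries, overlapped the stage II values of 46.6 and 25.8 CPM and did not pass (log2 fold change -3.00 ± 1.30, edgeR adjusted p = 0.158). With DESeq2 Elane passed (adjusted p = 0.0440). The summed level of the 8 genes was 3214, 4362 and 8702 CPM at stage I and 1648 and 1525 CPM at stage II. Whether contaminating progenitors of other lineages contribute to it was not tested. Calls were lost for Mpo without stage I library 2 or 3 or either stage II library (highest edgeR adjusted p = 0.293) and for Ctsg without stage I library 3 or either stage II library (0.178). They were lost for Ms4a3 without stage II library 1 (edgeR adjusted p = 0.107) and for Nkg7 without stage II library 2 (0.0631).

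Ribosome biogenesis genes fell in large part. Of its 42 members, all tested, 27 (against 5.16% of all genes) were lower at stage II and 0 were higher, with a median log2 fold change of -0.99, and in 35 the 2 stage II libraries lay below all 3 stage I libraries (20.4% of all genes). Myc, the transcription factor known to drive these genes (chr15:61985391-61990374), measured 214, 185 and 258 CPM at stage I and 33.5 and 21.99 CPM at stage II (log2 fold change -2.98 ± 0.41, edgeR adjusted p = 0.000122). Tsr1, which matures the small ribosomal subunit, measured 16.0, 19.2 and 25.03 CPM at stage I and 2.04 and 2.62 CPM at stage II (log2 fold change -3.10 ± 0.48, edgeR adjusted p = 0.000261). Rcl1, an endonuclease of ribosomal RNA processing, measured 34.7, 44.9 and 47.6 CPM at stage I and 5.73 and 7.85 CPM at stage II (log2 fold change -2.64 ± 0.32, edgeR adjusted p = 2.62e-05). In these 3 both stage II libraries lay below all stage I libraries. Gnl3, nucleostemin, measured 75.2, 78.6 and 90.9 CPM at stage I and 20.8 and 12.3 CPM at stage II (log2 fold change -2.31 ± 0.28, edgeR adjusted p = 2.28e-05). Mybbp1a, a nucleolar regulator, measured 60.5, 71.9 and 81.4 CPM at stage I and 14.4 and 20.7 CPM at stage II (log2 fold change -2.02 ± 0.35, edgeR adjusted p = 0.000682). Srm, spermidine synthase, outside this list, measured 163, 153 and 169 CPM at stage I and 40.6 and 28.7 CPM at stage II (log2 fold change -2.22 ± 0.25, edgeR adjusted p = 1.18e-05). Tsr1, Gnl3 and Mybbp1a share exon sequence with a gene on the opposite strand (Srr, Pbrm1 and Spns2), and strand was not recorded. The call of each gene named in this paragraph held whichever library was left out, and the list had 17 to 24 lower members in those fits.

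The promoters of these genes were searched for the palindromic E-box CACGTG, the hexamer bound by Myc and Max, on both strands (it reads the same on each) in the 300 bases from 250 before to 50 after each RefSeq start (GRCm38.p6), to show where it lies in the members that fell. Of 639 genes lower in the step 515 had a promoter window, and 93 of these (18.1%) held at least 1 CACGTG, against 73 of 724 higher genes (10.1%), 1169 of 9792 tested genes (11.9%) and 8.09% of all genes with a window. Among the 27 lower ribosome biogenesis genes 23 had a window and 5 (21.7%) held the hexamer, which is also the share among all tested members of the list (8 of 37, 21.6%). Of the lower cytosolic ribosomal proteins 3 of 33 (9.09%) held it, and of the lower secretory pathway genes 1 of 12 (8.33%). Those 5 are printed on their coding strand, 5′ to 3′, with the E-box in capitals and 12 flanking bases where the window has them.
Tsr1: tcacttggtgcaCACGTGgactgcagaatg
Mybbp1a: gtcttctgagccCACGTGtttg
Utp4: tgcgcaagcgcgCACGTGgggccggggcgg
Nop2: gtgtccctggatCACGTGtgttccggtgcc
Wdr43: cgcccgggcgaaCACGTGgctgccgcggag
They lie on the plus strand at chr11:74898092-74898121, chr11:72441355-72441376, chr8:106893643-106893672, chr6:125131811-125131840 and chr17:71616220-71616249. The E-box begins 24, 40, 15 and 17 bases after the start in Tsr1, Mybbp1a, Utp4 and Wdr43 and 60 bases before it in Nop2. The 5 genes had log2 fold changes of -3.10, -2.02, -1.37, -1.06 and -1.02 in the printed order. A hexamer in a window is a description of the sequence and not a binding site. The windows of Gnl3 and Rcl1, which fell as well, do not hold these letters. The motifs TTGCNNAA and TGTGGT were searched in the same way on both strands. TTGCNNAA was in 11.8% of lower, 14.5% of higher and 10.2% of tested genes, and TGTGGT in 16.3%, 17.4% and 15.9%.

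Ribosomal protein and secretory pathway genes fell as well, in part. Of 81 tested cytosolic ribosomal proteins 45 fell (against 5.16% of all genes) and 0 rose, with a median of -0.58 and 79 of 81 below 0. In 75 both stage II libraries lay below all stage I libraries (20.4% of all genes). Rpl3 measured 289, 367 and 354 CPM at stage I and 176 and 163 CPM at stage II (log2 fold change -0.99 ± 0.20, edgeR adjusted p = 0.00240). Rpl12 measured 116, 121 and 140.0 CPM at stage I and 48.5 and 39.7 CPM at stage II (log2 fold change -1.51 ± 0.26, edgeR adjusted p = 0.000636). Ribosomal protein genes have many processed pseudogenes and their counts are uncertain. The number of called members was between 14 and 40 when each library was left out in turn, with 14 without stage II library 2 and 19 without stage II library 1. Of 39 genes of the secretory pathway and the unfolded protein response 16 fell (against 5.16% of all genes) and 1 rose, with a median of -0.61. Calr, the chaperone calreticulin, measured 1273, 1535 and 1645 CPM at stage I and 279 and 432 CPM at stage II (log2 fold change -2.06 ± 0.29, edgeR adjusted p = 0.000122). Hspa5, the endoplasmic reticulum chaperone BiP, measured 3375, 2264 and 2580 CPM at stage I and 1348 and 870.4 CPM at stage II (log2 fold change -1.30 ± 0.23, edgeR adjusted p = 0.000755). The disulfide isomerase Pdia4 measured 346, 425 and 490.0 CPM at stage I and 143 and 181 CPM at stage II (log2 fold change -1.38 ± 0.24, edgeR adjusted p = 0.000810). These 3 kept their calls whichever library was left out. Hyou1, a partner of BiP, was called at -2.11 ± 0.60 and lost the call without stage I library 2 or 3 or stage II library 1 (highest edgeR adjusted p = 0.287). The 1 rise, the stress pseudokinase Trib3, measured 1.07, 0.761 and 0.0974 CPM at stage I and 9.30 and 2.83 CPM at stage II (log2 fold change 3.24 ± 0.69, edgeR adjusted p = 0.00379). It was lost without stage II library 1 (edgeR adjusted p = 0.150). Xbp1, the unfolded protein response factor that eosinophil precursors need, measured 424, 386 and 430.0 CPM at stage I and 244 and 193 CPM at stage II (log2 fold change -0.92 ± 0.15, edgeR adjusted p = 0.000551). It kept its call in each of the 5 fits.

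Serine, one-carbon and amino acid supply genes had 6 falls and 1 rise among 20 tested members, against 5.16% of all genes lower and 7.27% higher. Phgdh, the first enzyme of serine synthesis, measured 45.8, 55.5 and 89.5 CPM at stage I and 3.31 and 9.95 CPM at stage II (log2 fold change -3.24 ± 0.61, edgeR adjusted p = 0.00164). The folate enzyme gene Mthfd1 (-1.41 ± 0.36), the glycine-forming enzyme gene Shmt1 (-1.33 ± 0.40) and the amino acid transporter gene Slc7a5 (-2.07 ± 0.52) were lower. Slc7a11, the cystine transporter, rose (136, 123 and 52.9 CPM at stage I and 396 and 299.8 CPM at stage II, log2 fold change 1.74 ± 0.51, edgeR adjusted p = 0.0297). Each of these 5 lost its call in some fit with a library left out. Phgdh lost it without stage II library 1 (edgeR adjusted p = 0.0523), and Mthfd1 (highest 0.112) and Slc7a5 (0.134) without either stage II library. Shmt1 lost it without any library but stage I library 2 (highest edgeR adjusted p = 0.179) and Slc7a11 without any but stage I library 1 (0.220). Shmt1 shares exon sequence with Smcr8 on the opposite strand. Without stage II library 1 the list had 1 lower member.

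**Figure D2:**
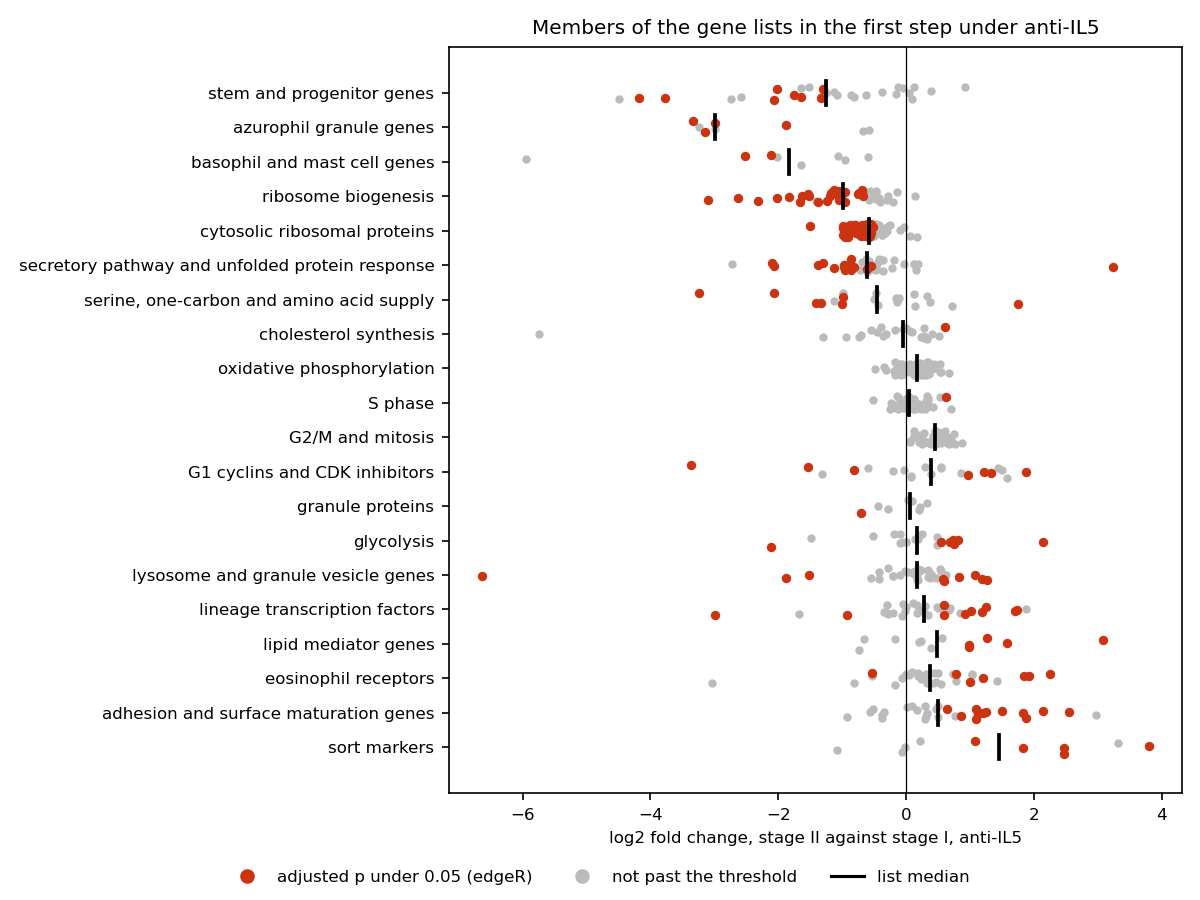
Log2 fold change (stage II against stage I, anti-IL5) of each tested member of 20 gene lists, one row per list. Red points passed an edgeR adjusted p under 0.05, grey points did not, and black bars are list medians; ribosome biogenesis holds 27 red points, all left of 0, and sort markers 5, all right of 0. The point of Rab27b, with 0 counts in both stage II libraries, is a fitted value and not a measured fold.

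No cell cycle gene of the S phase and G2/M lists was called lower. Of 52 G2/M and mitosis genes 0 passed in either direction (the background is 12.4%), but all 52 had a log2 fold change above 0, with a median of 0.46, and in 20 both stage II libraries lay above all stage I libraries (20.9% of all genes). Their summed level was 11249, 11899 and 10167 CPM at stage I and 12284 and 18113 CPM at stage II, so most of the difference came from stage II library 2. Mki67, the proliferation antigen, measured 251, 298.5 and 204 CPM at stage I and 244 and 464 CPM at stage II (log2 fold change 0.50 ± 0.34, edgeR adjusted p = 0.378). Only stage II library 2 was above the stage I libraries. Without that library the median of the list was 0.04. Of 43 S phase genes 1 rose (against 7.27% of all genes) and 0 fell, with a median of 0.05. The rise was in Slbp, the histone mRNA-binding protein (454, 427 and 359.9 CPM at stage I and 735 and 533 CPM at stage II, log2 fold change 0.62 ± 0.18, edgeR adjusted p = 0.0290). Slbp lost its call without stage I library 2 or 3 or stage II library 1 (highest edgeR adjusted p = 0.424).

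The regulators of the first gap phase were split, with 4 higher and 3 lower of 21, against 7.27% and 5.16% of all genes. Without stage II library 1 there were 2 higher and 2 lower. Ccnd2, a D-type cyclin that IL-5 family cytokines induce, measured 36.6, 37.9 and 61.8 CPM at stage I and 3.82 and 4.92 CPM at stage II (log2 fold change -3.37 ± 0.59, edgeR adjusted p = 0.000801). Ccnd3, another D-type cyclin, measured 376, 301.3 and 292.3 CPM at stage I and 721 and 542 CPM at stage II (log2 fold change 0.97 ± 0.21, edgeR adjusted p = 0.00406). Cdk6, the partner kinase of both, measured 117, 167 and 205 CPM at stage I and 35.5 and 76.7 CPM at stage II (log2 fold change -1.54 ± 0.35, edgeR adjusted p = 0.00555). Cdkn2d, the inhibitor p19, measured 232, 194 and 161 CPM at stage I and 474 and 432 CPM at stage II (log2 fold change 1.21 ± 0.17, edgeR adjusted p = 0.000127). The inhibitor gene Cdkn2b and the factor gene E2f2 were higher by 1.87 ± 0.58 and 1.33 ± 0.29. Ccnd2, Cdkn2d and E2f2 kept their calls whichever library was left out. Ccnd3 (edgeR adjusted p = 0.106) and Cdk6 (0.149) lost theirs without stage II library 1, and Cdkn2b without that library or stage I library 2 or 3 (highest 0.456). The kinase Cdk4 changed by -0.81 ± 0.19 and lost its call without stage II library 2 (edgeR adjusted p = 0.0526). Ccnd3 and Cdk4 share exon sequence with a gene on the opposite strand (Bysl and Tspan31).

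The eosinophil granule proteins, the most abundant products of these cells, did not pass the test between the stages with 1 exception among 8 tested members. Prg2 measured 21230, 16930 and 17510 CPM at stage I and 21110 and 16880 CPM at stage II (log2 fold change 0.03 ± 0.31, edgeR adjusted p = 0.964). Epx, eosinophil peroxidase, measured 19550, 16020 and 19400 CPM at stage I and 15690 and 11240 CPM at stage II (log2 fold change -0.44 ± 0.37, edgeR adjusted p = 0.488). Prg3 was at 6674, 6001 and 6198 CPM at stage I and 5873 and 4500 CPM at stage II (log2 fold change -0.28 ± 0.29, edgeR adjusted p = 0.601). The ribonuclease Ear1 was at 3138, 2827 and 2514 CPM at stage I and 3701 and 3371 CPM at stage II (log2 fold change 0.32 ± 0.34, edgeR adjusted p = 0.599). The libraries of Prg2 overlapped, those of Epx and Prg3 were lower at stage II and those of Ear1 higher, but none passed. Ear2 and Ear6 changed by 0.21 ± 0.37 and 0.20 ± 0.30 and did not pass. The Ear genes are near-identical copies that can share reads. Srgn, serglycin, the proteoglycan that packs granule proteins, was the called member, lower in both stage II libraries than in all stage I libraries (log2 fold change -0.71 ± 0.22, edgeR adjusted p = 0.0398). It lost its call without any library but stage I library 1 (highest edgeR adjusted p = 0.225).

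Among 34 lineage transcription factors 8 rose and 2 fell, the falls being Myc and Xbp1, against 7.27% of all genes higher and 5.16% lower. The rises numbered 4 without stage I library 2 or 3 and 2 without stage II library 1. Id2, an inhibitor of E proteins (chr12:25093799-25097140), measured 289.5, 264 and 189.7 CPM at stage I and 846 and 809.9 CPM at stage II (log2 fold change 1.74 ± 0.18, edgeR adjusted p = 7.55e-06). Mxd1, a Max partner that opposes Myc, measured 74.4, 75.7 and 55.5 CPM at stage I and 206 and 239 CPM at stage II (log2 fold change 1.70 ± 0.19, edgeR adjusted p = 1.08e-05). Both were more than doubled in each stage II library relative to the highest stage I library. Spi1, the myeloid factor PU.1, measured 479, 378 and 382 CPM at stage I and 993 and 567 CPM at stage II (log2 fold change 0.92 ± 0.21, edgeR adjusted p = 0.00555). Gata1, the factor that specifies eosinophils, measured 269, 225 and 239.5 CPM at stage I and 424 and 311.9 CPM at stage II (log2 fold change 0.59 ± 0.17, edgeR adjusted p = 0.0279). Nfil3 and Bhlhe40 were higher by 1.24 ± 0.27 and 1.18 ± 0.33. Gata2 (0.33 ± 0.25), Cebpe, a late granule gene factor (0.47 ± 0.17), Cebpa (-1.68 ± 0.60) and Id1 (0.84 ± 0.29) did not pass with edgeR. With DESeq2 Id1 (adjusted p = 0.0379), Cebpa (0.0463) and Cebpe (0.0480) passed, and Id1 also with limma-voom (0.0250). Id2 and Mxd1 kept their calls whichever library was left out. Spi1 (edgeR adjusted p = 0.290) and Nfil3 (0.0753) were lost without stage II library 1. Gata1 (highest edgeR adjusted p = 0.414) and Bhlhe40 (0.287) were lost without that library or stage I library 2 or 3.

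The genes of the sorted antigens are listed with Cd200r4, a relative of Cd200r3 that the sort antibodies did not name. They are given as a description, since the gates used the proteins of these antigens. Among 10 tested members 5 were called higher (against 7.27% of all genes). There were 3 without stage I library 3 or stage II library 1. Pirb, an inhibitory immunoglobulin-like receptor, measured 104, 67.2 and 59.3 CPM at stage I and 290.5 and 255 CPM at stage II. Pira2, its activating relative, measured 1.66, 1.14 and 2.44 CPM at stage I and 12.4 and 7.23 CPM at stage II, and Cd200r4 measured 3.91, 7.14 and 2.73 CPM at stage I and 26.7 and 24.4 CPM at stage II. Cd200r3 had at most 0.381 CPM at stage I and 3.69 and 1.47 CPM at stage II. Adgre1, which encodes F4/80, measured 165, 176 and 145 CPM at stage I and 409 and 277 CPM at stage II. Adgre1 lost its call without stage I library 3 or stage II library 1 (highest edgeR adjusted p = 0.231) and Cd200r3 without those or stage I library 1 (0.282). All of these genes lay higher at stage II in both libraries, whereas the stages overlapped for Siglecf and for Itgb1, which encodes CD29 (80.0, 97.9 and 121 CPM at stage I and 77.4 and 119.8 CPM at stage II). Cd55 measured 49.5, 59.7 and 54.6 CPM at stage I and 62.0 and 65.4 CPM at stage II and was not called. Kit, the CD117 gene described above, went the other way, lower in both stage II libraries than in all stage I libraries, and was not called. The Pira genes, and Cd200r3 with Cd200r4, are close relatives that can share reads.

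Part of the adhesion and surface genes that the sort antibodies did not name rose. Of 30 tested members 12 were higher (against 7.27% of all genes) and 0 were lower. Itgb7, the beta chain of the gut-homing integrin, measured 89.2, 56.8 and 66.7 CPM at stage I and 279.7 and 243 CPM at stage II (log2 fold change 1.88 ± 0.28, edgeR adjusted p = 0.000216). Lilra6, a paired immunoglobulin-like receptor, measured 12.2, 11.5 and 10.2 CPM at stage I and 72.1 and 59.9 CPM at stage II (log2 fold change 2.54 ± 0.28, edgeR adjusted p = 1.08e-05). Cd300lf, a lipid-binding inhibitory receptor, measured 49.2, 23.7 and 39.8 CPM at stage I and 218 and 114 CPM at stage II (log2 fold change 2.15 ± 0.37, edgeR adjusted p = 0.000801). The immunoglobulin-like receptor Lilr4b measured 116, 69.8 and 48.9 CPM at stage I and 287 and 267 CPM at stage II (log2 fold change 1.83 ± 0.35, edgeR adjusted p = 0.00190). The stages did not overlap in these 4 genes, and each kept its call whichever library was left out. The integrin genes Itgam, Itgal and Itgb2 were among the other 8, with log2 fold changes of 1.10, 1.25 and 1.21. Between 9 and 11 members were called when each library was left out. Lilra6 and Lilr4b have close relatives that can share reads. Lilra6 (chr7:3908280-3915503) lies near Pira2 (chr7:3836812-3845051) and Pirb (chr7:3711409-3720391). Whether the Pir-A/B antibody of the sort binds its product was not tested, so its rise may not be independent of the gates.

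Of 32 eosinophil receptors 6 were higher (against 7.27% of all genes) and 1 lower, a count of falls no larger than the share over all genes (5.16%) gives. Ccr3, the eotaxin receptor (chr9:124021972-124031689), measured 35.1, 26.7 and 17.9 CPM at stage I and 103 and 149 CPM at stage II (log2 fold change 2.25 ± 0.40, edgeR adjusted p = 0.00104). Ptafr, the receptor of platelet-activating factor, measured 3.79, 3.24 and 4.87 CPM at stage I and 15.7 and 14.4 CPM at stage II (log2 fold change 1.91 ± 0.39, edgeR adjusted p = 0.00251). Both kept their calls in each of the 5 fits. Ccr1, a chemokine receptor, measured 194, 159 and 104 CPM at stage I and 365 and 336 CPM at stage II (log2 fold change 1.20 ± 0.28, edgeR adjusted p = 0.00722). The anaphylatoxin receptor gene C3ar1 was higher by 1.85 ± 0.48, from at most 2.13 CPM. Ifngr1, of the interferon gamma receptor, was the 1 lower member (275, 320.2 and 420.0 CPM at stage I and 239 and 226 CPM at stage II, log2 fold change -0.54 ± 0.17, edgeR adjusted p = 0.0429). Il5ra, the receptor of the neutralised cytokine, measured 233, 307.7 and 295.9 CPM at stage I and 164 and 223 CPM at stage II. Its 2 stage II libraries lay below all stage I libraries, but it did not pass (log2 fold change -0.53 ± 0.21, edgeR adjusted p = 0.106). Csf2rb measured 159, 147 and 125 CPM at stage I and 139.7 and 199 CPM at stage II (log2 fold change 0.24 ± 0.22, edgeR adjusted p = 0.536). Il1rl1, the IL-33 receptor, measured 31.0, 54.2 and 39.3 CPM at stage I and 19.99 and 65.0 CPM at stage II (log2 fold change 0.04 ± 0.34, edgeR adjusted p = 0.961). Calls were lost for Ccr1 without stage II library 1 (edgeR adjusted p = 0.0687), and for C3ar1 without that library or stage I library 2 or 3 (highest 0.257). Ifngr1 was lost without any but stage I library 1 (highest edgeR adjusted p = 0.232). Without stage II library 1 the list had 3 higher members.

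Lipid mediator genes had 5 rises and 0 falls among 12, against 7.27% of all genes higher. Alox15, the 12/15-lipoxygenase of eosinophils (chr11:70344152-70352031), measured 2437, 1589 and 1310 CPM at stage I and 6312 and 4323 CPM at stage II (log2 fold change 1.58 ± 0.26, edgeR adjusted p = 0.000448). Alox5, the first enzyme of leukotriene synthesis, measured 460.2, 329.7 and 286 CPM at stage I and 953 and 761 CPM at stage II (log2 fold change 1.26 ± 0.20, edgeR adjusted p = 0.000285). Its partner gene Alox5ap measured 532, 464 and 449 CPM at stage I and 1158 and 754 CPM at stage II (log2 fold change 0.99 ± 0.21, edgeR adjusted p = 0.00326). Pla2g7, which breaks down platelet-activating factor, measured 6.40, 2.38 and 2.73 CPM at stage I and 48.4 and 15.4 CPM at stage II (log2 fold change 3.08 ± 0.64, edgeR adjusted p = 0.00416). The stages did not overlap in these 4. Alox15 and Alox5 kept their calls whichever library was left out, and without stage II library 1 Alox5ap (edgeR adjusted p = 0.138) and Pla2g7 (0.144) lost theirs. The list had 3 higher members without that library. Pla2g7 shares exon sequence with 1700071M16Rik on the opposite strand.

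In metabolism the 76 tested genes of oxidative phosphorylation had 0 calls (against 12.4% of all genes) and a median of 0.17. Without stage II library 2 there were 7 higher members, and the median lay between -0.03 and 0.36 with 1 library left out. Of 20 glycolysis genes 6 rose (against 7.27% of all genes) and 1 fell (against 5.16%). Slc2a3, a glucose transporter, measured 97.5, 68.5 and 49.0 CPM at stage I and 338 and 291.8 CPM at stage II (log2 fold change 2.14 ± 0.25, edgeR adjusted p = 1.59e-05). Pdk1, the kinase that restrains pyruvate oxidation, measured 16.9, 13.4 and 28.7 CPM at stage I and 5.35 and 3.77 CPM at stage II (log2 fold change -2.12 ± 0.45, edgeR adjusted p = 0.00397). Both kept their calls in every fit with a library left out. Hk2, hexokinase 2 (0.75 ± 0.20), aldolase A (Aldoa, 0.73 ± 0.20) and the lactate exporter Slc16a3 (0.81 ± 0.18) were higher. Hk2 (highest edgeR adjusted p = 0.148) and Aldoa (0.459) lost their calls without stage I library 2 or 3 or stage II library 1. Slc16a3 lost its call without stage II library 2 (edgeR adjusted p = 0.0591), and 2 higher members were left without stage I library 2 or stage II library 1. Aldoa shares exon sequence with Fam57b on the opposite strand. Of 23 cholesterol synthesis genes 1 rose, a share no larger than the 7.27% of all genes, and 0 fell. The rise was in Sc5d (54.6, 64.1 and 54.7 CPM at stage I and 89.8 and 86.0 CPM at stage II, log2 fold change 0.60 ± 0.19, edgeR adjusted p = 0.0357). It lost its call without any library but stage I library 2 (highest edgeR adjusted p = 0.194).

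Among 39 lysosome and granule vesicle genes 6 rose and 3 fell. The share over all genes is 7.27% higher and 5.16% lower, so the falls are near it. Tfeb, the master regulator of lysosome genes, measured 36.4, 28.7 and 29.9 CPM at stage I and 64.6 and 68.6 CPM at stage II (log2 fold change 1.07 ± 0.20, edgeR adjusted p = 0.00113). Gaa, acid alpha-glucosidase, measured 47.1, 65.8 and 68.4 CPM at stage I and 12.1 and 20.6 CPM at stage II (log2 fold change -1.88 ± 0.28, edgeR adjusted p = 0.000216). Gm2a, the ganglioside activator, measured 183, 236 and 360.2 CPM at stage I and 93.5 and 87.2 CPM at stage II (log2 fold change -1.52 ± 0.26, edgeR adjusted p = 0.000682). Tfeb rose while Gaa and Gm2a fell, and these 3 kept their calls whichever library was left out. Ctsd, cathepsin D (0.83 ± 0.23), Lyst (1.19 ± 0.32) and Stx11 (1.27 ± 0.29) were higher. Leaving out a library gave them a highest edgeR adjusted p of 0.244 (without stage I library 2 or stage II library 1), 0.0893 (without stage I library 3 or either stage II library) and 0.0727 (without stage II library 1, which left 1 higher member). Rab27b, a vesicle GTPase, had 0 counts in both stage II libraries and in stage I library 1, and 1.33 and 2.24 CPM in the other stage I libraries. Pooled over each group, the 37 counts at stage I against a floor of 3 counts at stage II give a bound of 7.35-fold. That bound covers counting error only and not the spread between libraries, and the stages overlapped. The call of Rab27b was lost without any library but stage I library 1 (highest edgeR adjusted p = 0.180).

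Genes tied to the cytokines of the experiment were called about as often as all genes (12.4%) in the IL-5/STAT5 list. Of its 20 tested targets 2 fell and 1 rose, which are the Ccnd2, Myc and Ccnd3 described above, and without stage I library 1 there were 5 higher members. Cish, a STAT5-induced inhibitor, measured 9.12, 4.09 and 1.85 CPM at stage I and 9.55 and 4.50 CPM at stage II (log2 fold change 0.50 ± 0.45, edgeR adjusted p = 0.535). Pim1 measured 25.6, 10.9 and 11.1 CPM at stage I and 16.9 and 13.7 CPM at stage II (log2 fold change -0.04 ± 0.34, edgeR adjusted p = 0.958). Bcl6, which STAT5 represses, measured 2.61, 6.19 and 5.75 CPM at stage I and 6.88 and 7.43 CPM at stage II (log2 fold change 0.55 ± 0.48, edgeR adjusted p = 0.513). Socs2 was at most 0.877 CPM in any of the 5 libraries. Under isotype the list had 6 higher and 2 lower members. Isotype means at stages I and II were 14.9 and 13.6 CPM for Socs2 and 68.3 and 84.4 CPM for Pim1. They were 11.7 and 31.5 CPM for Cish, which passed there (edgeR adjusted p = 0.0227), and 0.840 and 1.08 CPM for Bcl6. The lipase gene Lipg had means of 0.518 and 0.524 CPM under anti-IL5 and 77.2 and 178 CPM under isotype. None of these genes passed the test of the difference between the steps. Of 14 antiapoptotic genes 0 passed. Of 17 proapoptotic genes 1 was higher and 1 lower, which is near the shares over all genes (7.27% and 5.16%). The death receptor gene Fas rose (17.2, 27.0 and 25.6 CPM at stage I and 46.9 and 42.0 CPM at stage II, log2 fold change 0.93 ± 0.27, edgeR adjusted p = 0.0260). Trp53 fell (106, 132 and 125 CPM at stage I and 72.0 and 70.1 CPM at stage II, log2 fold change -0.77 ± 0.16, edgeR adjusted p = 0.00379). Of 23 IL-33 and NF-kB genes 4 rose (against 7.27% of all genes, and 1 member without stage II library 1) and 0 fell: Il1rn, Il4, Il6 (1.54 ± 0.42) and Relb (1.53 ± 0.49). Il4 measured 53.8, 48.9 and 41.3 CPM at stage I and 95.3 and 77.9 CPM at stage II (log2 fold change 0.85 ± 0.17, edgeR adjusted p = 0.00219). Il4 lost its call without stage II library 1 (edgeR adjusted p = 0.0587), and Fas without any library but stage I library 2 (highest 0.181). Il6 (highest edgeR adjusted p = 0.494) and Relb (0.372) were lost without that stage II library or stage I library 2 or 3. Of 30 interferon response genes 0 passed.

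Lists of genes better known from other cells are given beside the shares over all genes, 7.27% higher and 5.16% lower. Of 16 mature neutrophil genes 5 rose and 0 fell, and 3 rose without stage I library 1 or stage II library 1. Padi4, the enzyme that citrullinates histones, measured 378, 243 and 193 CPM at stage I and 1134 and 736 CPM at stage II (log2 fold change 1.79 ± 0.25, edgeR adjusted p = 0.000107). Itgb2l measured 25.1, 42.0 and 38.0 CPM at stage I and 145 and 93.5 CPM at stage II (log2 fold change 1.76 ± 0.32, edgeR adjusted p = 0.00122). Ly6g, the antigen of the depletion, measured 0.948, 3.43 and 4.68 CPM at stage I and 9.42 and 11.5 CPM at stage II (log2 fold change 1.78 ± 0.53, edgeR adjusted p = 0.0310). Retnlg, described above among the largest rises, also belongs to this list and had its largest log2 fold change (4.43 ± 0.34). Ltf, Camp, Lcn2, S100a8 and S100a9 had log2 fold changes between -0.73 and 0.09 and did not pass. The summed level of the 16 genes was 2647, 6606 and 6561 CPM at stage I and 8141 and 8298 CPM at stage II, and whether neutrophils contribute to it was not tested. Of 14 monocyte and macrophage genes 1 rose, a count near the share over all genes, the CSF1 receptor Csf1r (28.3, 12.9 and 16.0 CPM at stage I and 109.8 and 67.2 CPM at stage II, log2 fold change 2.22 ± 0.35, edgeR adjusted p = 0.000317). Their summed level was 1785 to 1867 CPM at stage I and 1911 and 2073 CPM at stage II. Of 8 tested basophil and mast cell genes 2 fell, 4 without stage I library 1 and 1 without stage I library 2 or 3. The mast cell carboxypeptidase Cpa3 measured 473, 583 and 871 CPM at stage I and 105 and 119 CPM at stage II (log2 fold change -2.52 ± 0.41, edgeR adjusted p = 0.000556). Ms4a2, the beta subunit of the IgE receptor, measured 30.6, 59.2 and 79.6 CPM at stage I and 7.64 and 18.2 CPM at stage II (log2 fold change -2.12 ± 0.61, edgeR adjusted p = 0.0272). The 12 listed genes summed to 2009 to 3133 CPM at stage I and 1262 and 989 CPM at stage II. In the megakaryocyte list 1 of 6 rose (Itgb3, 1.66 ± 0.40) and in the dendritic cell list 1 of 11 fell (Tcf4, -2.44 ± 0.78), while 0 of 10 erythroid and 0 of 7 B lineage genes passed. Of 3 tested T, NK and innate lymphoid genes 1 fell, the Nkg7 described above. Padi4, Itgb2l, Csf1r and Cpa3 kept their calls whichever library was left out. Ms4a2 was lost without stage I library 2 or 3 or stage II library 1 (highest edgeR adjusted p = 0.293) and Itgb3 without stage II library 2 (0.0715). Ly6g was lost without any but stage I library 3 (highest edgeR adjusted p = 0.115) and Tcf4 without any but stage I library 1 (0.260).

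The same step in the isotype libraries, which share no library with the anti-IL5 step, called 1319 of 12387 genes (10.6%), 916 higher (7.39%) and 403 lower (3.25%). Of the genes higher under anti-IL5 600 were also higher under isotype (66.7% of the anti-IL5 calls and 65.5% of the isotype calls), and of the lower genes 277 were shared (43.3% and 68.7%). No gene was called in opposite directions, and 1521 of the 1539 anti-IL5 calls (98.8%) had the same sign under isotype. The log2 fold changes of the steps had a Pearson correlation of 0.566 across all 12387 genes tested and of 0.847 across the 8826 with at least 10 CPM in a group, a description over genes, which are not independent replicates. The genes called under anti-IL5 had a median absolute log2 fold change of 1.02 under anti-IL5 and 0.84 under isotype, where the first value is raised by the choice of the genes.

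**Figure D3:**
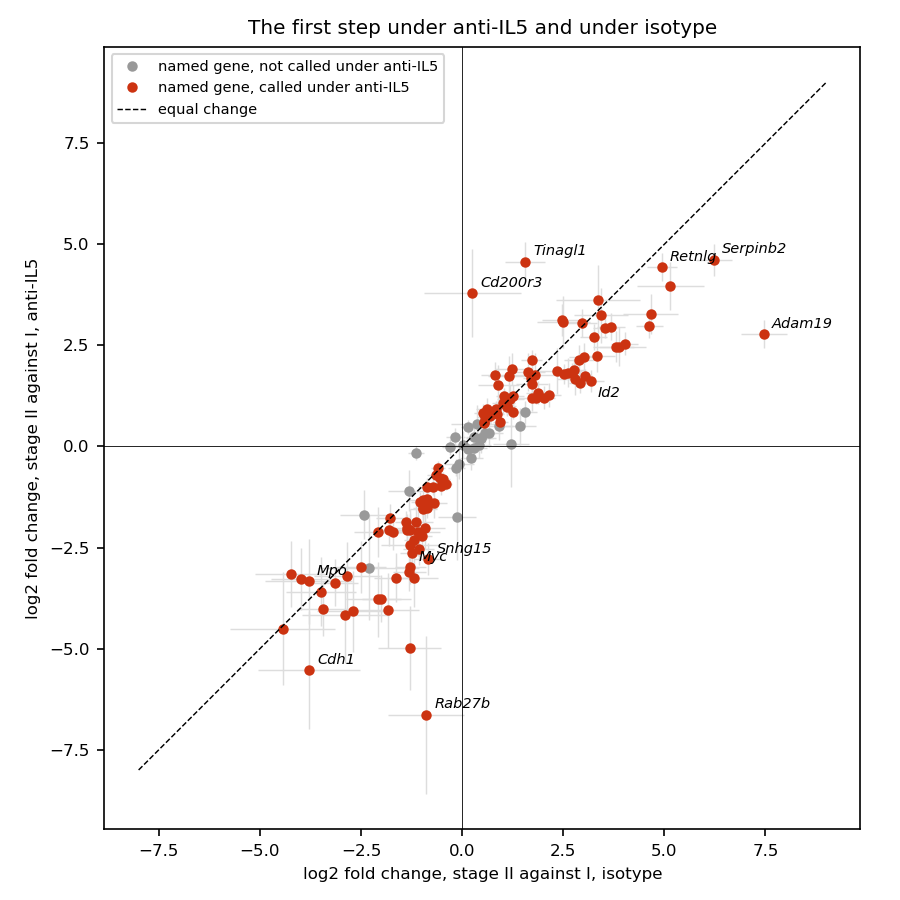
Log2 fold change from stage I to stage II of the 140 named genes under isotype (x axis) and under anti-IL5 (y axis), with SE bars; red points were called under anti-IL5 and the dashed line marks equal change. Most points lie near the line, Adam19 lies to its right (2.77 under anti-IL5, 7.46 under isotype) and Tinagl1 above it (4.57 and 1.57), and no gene passed the edgeR test of the difference.

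The test of the difference between the steps called 0 of 12387 genes with edgeR (0% of those tested), and 2.53% of them reached an unadjusted p under 0.05. limma-voom also called 0, and DESeq2 called 3, Adam19 (adjusted p = 0.000336), Id2 (0.0179) and Tinagl1 (0.0267). Adam19 measured 7.46, 6.76 and 2.14 CPM at stage I and 33.9 and 40.0 CPM at stage II under anti-IL5, and 0.0740, 0 and 0.283 CPM at stage I and 23.3 and 22.9 CPM at stage II under isotype, where the 3 stage I libraries together held 4 counts. Its rise was smaller under anti-IL5 by 4.69 ± 0.79 (log2, SE; edgeR adjusted p = 0.0845), and it was called at 0.00158 without stage I anti-IL5 library 3. Id2 measured 38.8, 25.6 and 38.2 CPM at stage I and 314.9 and 246 CPM at stage II under isotype, so its stage I levels under anti-IL5 (189.7 to 289.5 CPM) overlapped the isotype levels at stage II, and its difference was -1.29 ± 0.26 (edgeR adjusted p = 0.456). Tinagl1 measured 2.51, 1.04 and 1.98 CPM at stage I and 8.49 and 2.94 CPM at stage II under isotype, and its rise was larger under anti-IL5 by 3.00 ± 0.72 (edgeR adjusted p = 1). The next smallest unadjusted p-values, which did not pass, belonged to the small nucleolar host gene Snhg15 (-2.79 under anti-IL5 and -0.84 under isotype), the matrix protein Tgfbi (1.61 and 3.19), Srm (-2.22 and -0.99), St6galnac4 (-0.16 and -1.14) and S100a6 (2.99 and 4.63). Myc, not among the 8 genes of smallest p, changed by -2.98 under anti-IL5 and -1.28 under isotype. It measured 363, 317 and 298.9 CPM at stage I and 132 and 137 CPM at stage II under isotype. Its difference was -1.70 ± 0.52 (edgeR unadjusted p = 0.00368) and did not pass after adjustment.

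**Figure D4:**
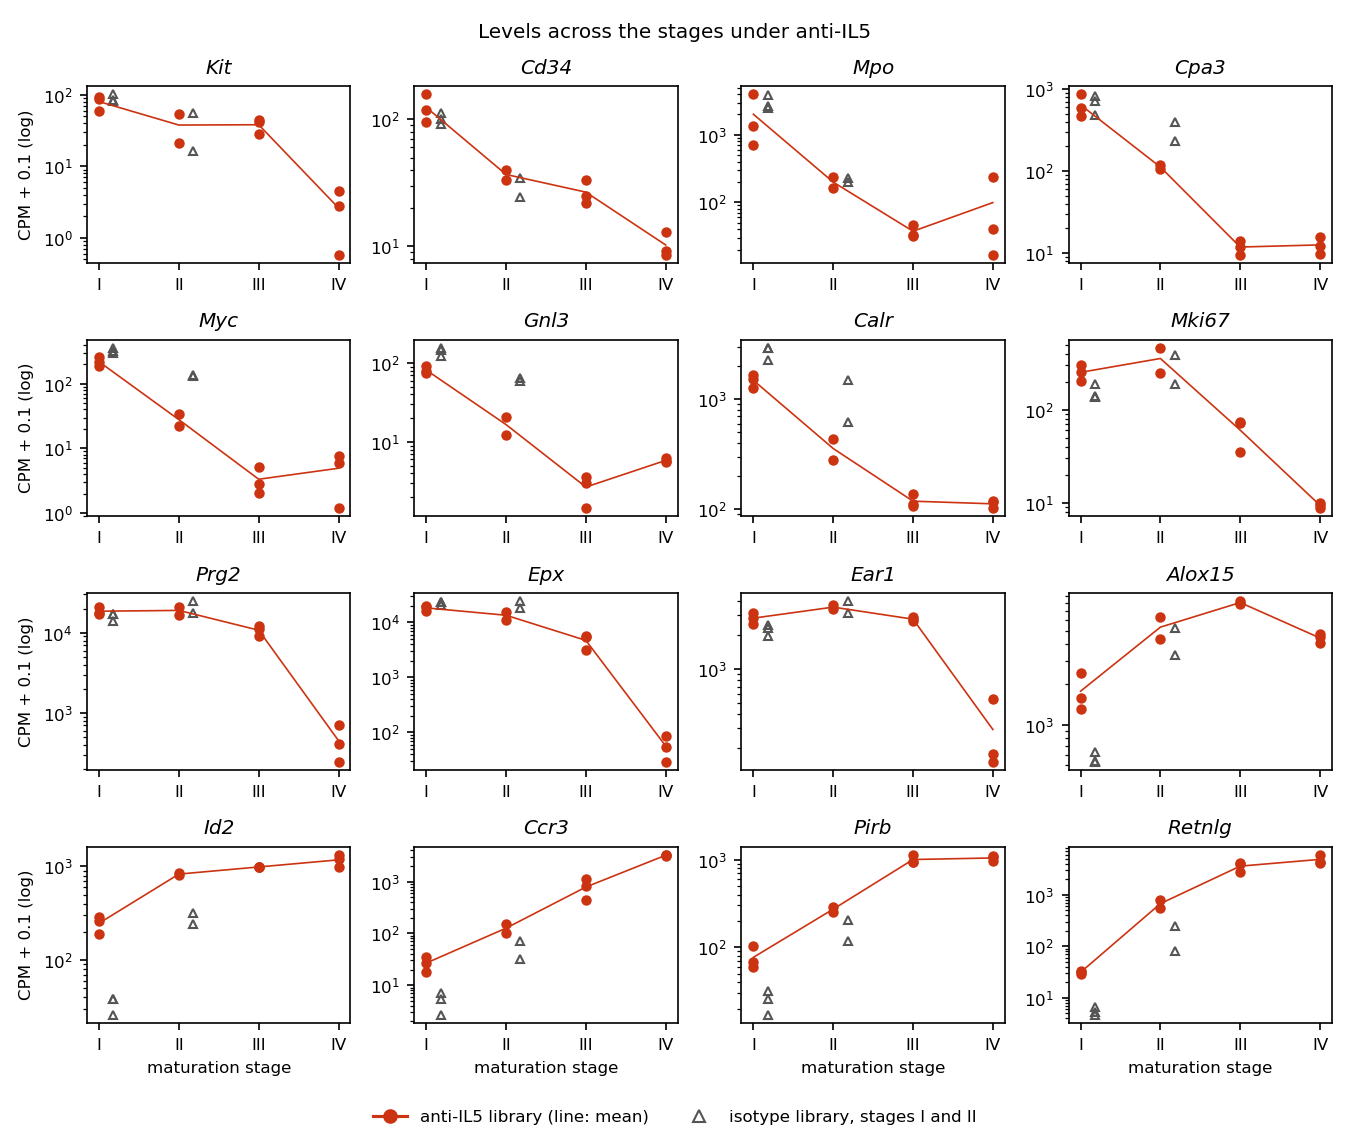
CPM plus 0.1 (log axes) of 16 genes in every anti-IL5 library of stages I to IV (red points, line through the means) and in the isotype libraries of stages I and II (open triangles). Cd34, Mpo, Cpa3, Myc, Gnl3 and Calr were lower at stage II than at stage I, Alox15, Id2, Ccr3, Pirb and Retnlg higher, and Prg2, Epx and Ear1 were near their stage I levels at stage II and lowest at stage IV.

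The step from stage II to III under anti-IL5 shares the stage II libraries with the first step, and the step from III to IV shares none with it. Their values are given side by side and not compared. From stage II to III 4887 genes were called (39.5%) and from stage III to IV 2951 (23.8%). Prg2 had means of 10760 CPM at stage III and 452 CPM at stage IV, and Epx of 4698 and 56.4 CPM, and both were lower at stage III than at stage II (edgeR adjusted p = 0.0370 and 0.00193). Mki67 had means of 60.1 and 9.27 CPM at these stages. Ccr3 had means of 785 and 3229 CPM and Retnlg of 3594 and 4864 CPM. Id2, at 828 CPM in the mean at stage II, had means of 987 and 1175 CPM. Myc had means of 3.23 and 4.83 CPM and Gnl3 of 2.58 and 5.73 CPM. Ifitm6 had means of 192 CPM at stage II, 372 CPM at stage III and 7.73 CPM at stage IV, and Itgb2l of 119, 219.8 and 7.12 CPM, so these 2 genes rose in the first step and fell from stage III to IV (edgeR adjusted p = 3.395e-10 and 1.89e-09).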

How the data were processed

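Per the labels' protocols, sorted cells gave full-length cDNA (SMART-Seq v4, 17 cycles) and Nextera XT libraries, with no molecular identifiers named, so counting intervals and floors cover counting error only. The submitters' processing notes name STAR 2.6.1a, the mm10 build and DESeq2, the last with no role. Which tool counted reads, with which annotation and strand setting, is not given in the sources used here. The authors deposited raw counts per gene symbol. The 2 lines naming no gene (no feature, 17.6% to 22.1%, and ambiguous, 2.05% to 2.34%, in the 5 libraries) were dropped.

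edgeR 4.0.16 in R 4.3.3 (quasi-likelihood, TMM, filterByExpr) was run on all 22 libraries in 8 groups and on 12387 of 24982 genes, so the 2 and 3 libraries borrow spread from the others. Genes with adjusted p under 0.05 over all genes tested are called. The code was tested on simulated counts. Positions are from GENCODE M21 and promoters from RefSeq. Besides the overlaps given above, exons of Bhlhe40, Ccnd2, Cd34, Csf1r, Csf2rb, Egfl7, Pdia4 and Rpl12 overlap those of another counted gene.

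Named genes are the 14 largest rises and falls without overlap and with at least 10 CPM (predicted genes left out), up to 4 called members of each list in each direction, genes fixed by name, and the 8 of smallest p for the difference. Other list members named were picked after their values were seen. The members and lists were chosen with earlier results of these data known. Alternatives were DESeq2 1.42.0, RLE scaling, no filter, limma-voom, the compared groups alone, a replicate block and each library left out.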

Additional observations from a re-analysis of the deposited data

Results flagged for a closer look

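Cd55, which encodes the CD55 antigen of the sort, had stage II libraries on opposite sides of stage I in the 2 treatments, though neither step passed. Under anti-IL5 both stage II libraries (62.0 and 65.4 CPM) lay above the 3 stage I libraries (49.5, 59.7 and 54.6 CPM), and under isotype both stage II libraries (101.9 and 101.1 CPM) lay below the 3 stage I libraries (109.1, 117.1 and 115.0 CPM). The log2 fold change was 0.22 ± 0.23 under anti-IL5 (edgeR adjusted p = 0.603) and -0.16 ± 0.23 under isotype (edgeR adjusted p = 0.718). The difference of the steps, anti-IL5 minus isotype, was 0.39 ± 0.33 on the log2 scale (SE) and did not pass (edgeR unadjusted p = 0.255, adjusted p = 1).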

How the results depend on the processing

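Of 1539 calls, DESeq2 shared 1527 (1994 called), RLE scaling 1517 (1530), limma-voom 1394 (1656), no filter 1374 (1470), the replicate block 1378 (1598) and the 5 libraries alone 963 (1118). Leaving out 1 library gave 509 to 1495 calls. The isotype step had 687 calls on its groups alone, 1473 with the replicate block and 386 to 1677 with 1 library left out (386 without stage II library 1, 775 and 845 without stage I library 2 and 3). The difference had 3 calls with DESeq2, 0 to 1 with 1 library left out (1 without stage I anti-IL5 library 3) and 0 with the other alternatives, the replicate block included. The labels do not say that a replicate number pairs libraries: deviations of same-numbered stage I and II libraries correlated at 0.160 and 0.133 across genes, and the block is given only as an alternative. With the block Id1 and Il5ra, not called above, passed (edgeR adjusted p = 0.0113 and 0.0436). Of 115 called genes among 140 named, 56 kept their calls with each of the 5 libraries left out and 59 did not, 53 named genes being weaker without stage II library 1. Of the called named genes, C3ar1, Cd200r3, Cdkn2b, Il6, Rab27b, Relb and Tcf4 did not pass with limma-voom, and Lrrn3, Mgl2 and Rhoj did not pass with DESeq2. With only the 5 libraries fitted, Aldoa, Bhlhe40, C3ar1, Cdkn2b, Gata1, Ifngr1, Il6, Ly6g, Rab27b, Relb, Sc5d, Slbp and Srgn did not pass. With the replicate block Ifngr1, Mpo, Rab27b, Relb, Sc5d, Shmt1, Slbp and Tcf4 did not pass. Named genes that were weaker numbered 9 with no filter and 1 with RLE scaling. No named gene reversed direction while called. Leaving out stage II library 2 moved the median of all genes by -0.095. With 2 stage II libraries, depth allows a floor of 3 counts, 0.286 to 0.382 CPM per library.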
